A study of Mus musculus with 7 samples.

Results

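The collagen chain genes were taken as every gene whose symbol is Col, a number, a and a number, with nothing after it. By these symbols 43 genes were found, 42 of them among the 15531 genes that were tested for expression. The other one, Col13a1, was not among the tested genes and has no value here. RNA came from 7 primary lines of mouse embryonic fibroblasts (MEFs), which are bulk cultures grown from minced embryo bodies at embryonic day 13.5 and used at confluence at passage 4. In 4 lines, called Df/+Bl6, the 129S5/SvEvBrd copy of chromosome 4 carried an engineered 4.3 Mb deletion and the C57BL/6J copy was intact. The 3 control lines, called +129/+Bl6, had an intact copy from each strain. All 7 were first-generation hybrids of the same strains, each line was cultured separately, and the sex and litter of the embryos are not given in the labels. Per the study's methods, the deletion embryos came from C57BL/6J females mated with male chimeras that carried the deletion. The study names +129/+Bl6 crosses for the controls, so genotype and cross cannot be told apart.

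Collagens are the proteins of the extracellular matrix that give connective tissue its tensile strength, and fibroblasts are a main source of them. A collagen molecule is built from a trio of chains that wind around each other. The winding needs a glycine at a fixed spacing, so the chains are long repeats of the triplet Gly-X-Y, where X and Y are often proline or hydroxyproline. Fibrillar collagens assemble into banded fibrils, while the FACIT collagens (fibril-associated collagens with interrupted triple helices) sit on the surface of these fibrils. Network-forming collagens make sheets such as basement membranes, and others form beaded filaments or span the cell membrane.

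The values described here are the mean normalized counts per genotype, that is, read pair counts scaled by the authors' DESeq size factors and averaged over lines. They are given in 3 tables, of which 1 adds up the reads of both alleles (here the combined comparison) and the others take 1 allele each, and a table holds only genes that DESeq placed past an FDR of 0.05. A gene is called listed when it is in such a table. No value per line was used, so the overlap of the genotypes, an SD and the depth of each line cannot be given, and no test was run between lines. A gene that was tested and is not listed has no value here, which does not show that it did not differ. All log2 ratios below are the Df/+Bl6 mean over the +129/+Bl6 mean, so a negative value means lower expression with the deletion.

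The deleted genes were looked at first as a check of the labels. In the combined comparison 23 genes within the interval from Rere to Ski of chromosome 4 were listed and all 23 were lower in the lines labelled Df/+Bl6. In the 129S5 table, 21 such genes had a Df/+Bl6 mean of at most 3.96% of the control mean.

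In the combined comparison 7 of the 42 tested collagen genes were listed (16.7%), against 8.67% of all genes tested. Of these, 6 were lower in Df/+Bl6 MEFs, namely Col22a1, Col9a2, Col10a1, Col28a1, Col5a2 and Col8a1. They are 14.3% of the collagen genes tested, while 3.54% of all tested genes were listed and lower. Col27a1 alone was higher, 2.38% of the collagen genes against 5.13% of all genes. These shares are descriptions and were not tested against each other. The remaining 35 collagen genes were not listed, among them Col1a1, Col1a2 and Col3a1, which encode the chains of the main fibrils of skin, tendon and vessel walls.

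The listed genes share the repeat that makes a collagen chain, which is shown here at the level of the coding sequence. Each line gives the first 54 bases (18 codons) of the longest uninterrupted run of Gly-X-Y triplets in the GENCODE transcript with the longest reading frame. Capitals mark the glycine codon that opens each triplet, and a glycine codon at position X or Y, such as ggg in Col8a1, is left in lower case.
Col5a2: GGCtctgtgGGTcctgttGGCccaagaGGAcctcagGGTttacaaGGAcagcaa
Col27a1: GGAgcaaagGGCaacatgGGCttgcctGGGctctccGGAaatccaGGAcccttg
Col8a1: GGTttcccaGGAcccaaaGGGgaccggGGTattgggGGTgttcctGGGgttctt
Col10a1: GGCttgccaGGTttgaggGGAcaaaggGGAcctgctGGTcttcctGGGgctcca
Col9a2: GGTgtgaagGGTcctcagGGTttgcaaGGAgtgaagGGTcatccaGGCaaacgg
Col22a1: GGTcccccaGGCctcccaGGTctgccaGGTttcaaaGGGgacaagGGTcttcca
Col28a1: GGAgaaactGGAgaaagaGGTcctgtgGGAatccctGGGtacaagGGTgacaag

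Runs of at least 5 triplets were counted in all 43 chains, and each chain had a complete reading frame. Over the 11 fibrillar chains the longest run had a median of 338 triplets (range 216 to 344), as in Col5a2 with 339, while Col27a1 with 217 was close to the lower end beside Col24a1 with 216. Col8a1 and Col10a1, which form hexagonal lattices rather than fibrils, were alike with 9 runs and a longest run of 60 triplets each. Among the FACIT chains, Col9a2 and Col22a1 both had a longest run of 113 triplets, the same as Col9a1 and Col9a3. Col28a1 had the shortest of all 43, 28 triplets, in a repeat broken into 17 runs. The 7 listed chains had a median longest run of 113 triplets and the 36 others 53.5, and the listed chains come from classes at both ends of this scale.

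**Figure D1:**
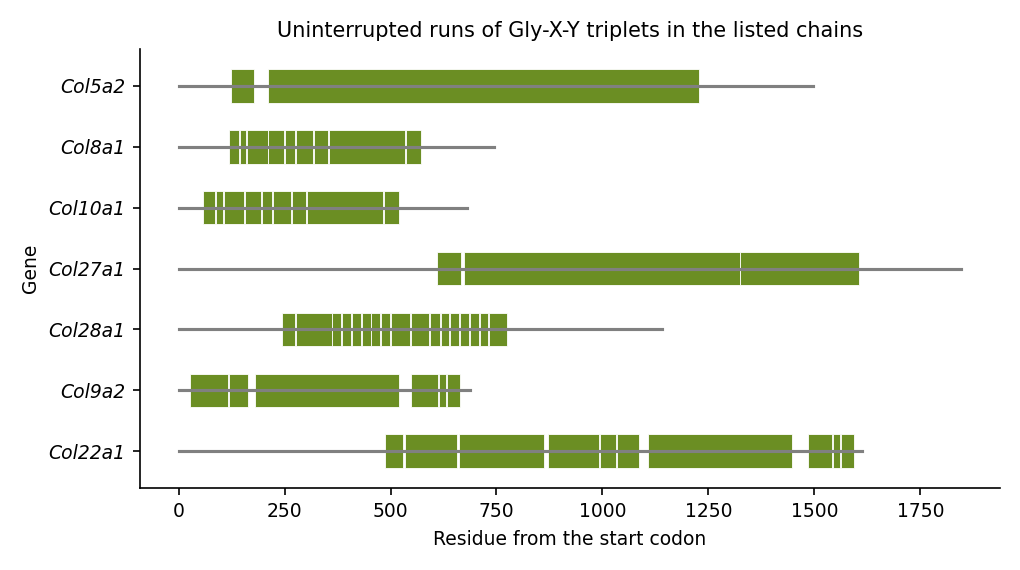
Runs of at least 5 uninterrupted Gly-X-Y triplets (green bars) along the 7 listed collagen chains, with the residue number from the start codon on the x axis and a grey line for the whole chain. Col5a2 has a single long run of 339 triplets, whereas the repeat of Col28a1 is broken into 17 runs.

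By class, the listed genes were 2 of 11 fibrillar, 2 of 9 network-forming and 2 of 9 FACIT genes. A further one, Col28a1, was among the 2 tested genes that were put in no named class, the other being Col7a1 of the anchoring fibrils. None of the 6 beaded-filament genes (Col6a1 to Col6a6), the 3 tested transmembrane genes (Col17a1, Col23a1 and Col25a1) or the 2 multiplexin genes (Col15a1 and Col18a1) was listed. Over all genes tested 8.67% were listed, and at that share a class of so few genes can easily hold none. No class was set against another by a test, and these counts do not show that a class was spared.

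**Figure D2:**
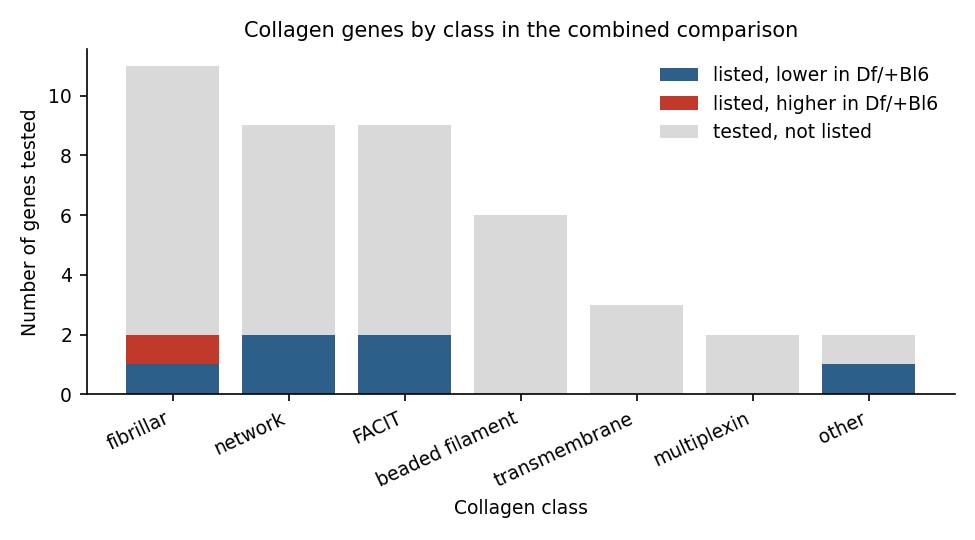
Number of collagen genes tested in the combined comparison in each class, with listed genes lower in Df/+Bl6 in blue, listed genes higher in red and tested genes that were not listed in grey. The single gene that was higher, Col27a1, is fibrillar, and beaded-filament, transmembrane and multiplexin genes hold no listed gene. Over all genes tested 8.67% were listed, so classes this small can easily hold none.

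Of the fibrillar genes, Col5a2 (ENSMUSG00000026042) encodes the alpha-2 chain of type V collagen, which is built into type I fibrils and helps to set their diameter. Its mean normalized count was 434974 in +129/+Bl6 and 279999 in Df/+Bl6 MEFs, 64.4% of the control mean (log2 ratio -0.64). This was the highest level of the listed collagens, and 1343 of the 1346 genes listed in the combined comparison had a lower overall mean. The fall was thus small in proportion and large in reads. On GRCm38.p6 Col5a2 lies on the minus strand of chromosome 1 at 45374331 to 45503282. Col3a1 points towards it from the plus strand and ends 24.6 kb away, and was not listed. The partner chains of type V collagen, Col5a1 and Col5a3, were not listed either, and nor was the fibrillar gene Col24a1.

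Col27a1 (ENSMUSG00000045672) encodes a fibrillar chain with a shorter helix that is known from cartilage and several embryonic tissues. Its mean normalized count was 827 in +129/+Bl6 and 1559 in Df/+Bl6, a 1.88-fold rise (log2 ratio 0.91). It was the one listed collagen gene that rose. It lies on chromosome 4 (63214009 to 63334991, plus strand, GRCm38.p6), 86.9 Mb from the deleted region when that region is taken to run from Rere to Ski. The 5 collagen genes of chromosome 4 all lie outside that interval, the nearest 20.2 Mb from it.

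The network-forming genes listed were Col10a1 and Col8a1, whose chains have a similar build. Col10a1 (ENSMUSG00000039462) encodes the type X collagen of hypertrophic chondrocytes. Its mean normalized count was 7361 in +129/+Bl6 and 1875 in Df/+Bl6, 25.5% of the control mean (log2 ratio -1.97). It lies on the plus strand of chromosome 10 at 34389981 to 34397085 (GRCm38.p6), and in the GENCODE annotation its exons overlap those of Nt5dc1 on the opposite strand. Nt5dc1 was tested and not listed. The libraries were stranded, but whether the counting used the strand is not given in the sources used here. The overlap was taken over all annotated exons. Whether it reaches the longest transcripts that the authors aligned to was not checked. If the counting ignored the strand, any pairs that matched the transcripts of both genes had no single best location and were dropped. How many these were is unknown, and their part in the Col10a1 value was not tested.

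Col8a1 (ENSMUSG00000068196) encodes a chain of type VIII collagen, a short-chain collagen of vessel walls and of the membrane behind the cornea. Its mean normalized count was 81173 in +129/+Bl6 and 52878 in Df/+Bl6, 65.1% of the control mean (log2 ratio -0.62). It lies on chromosome 16 at 57624256 to 57754737 (minus strand, GRCm38.p6). Col8a2, its partner chain, was not listed, and neither was any of the 6 chains of the type IV collagen of basement membranes.

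Of the FACIT genes, Col9a2 (ENSMUSG00000028626) encodes a chain of type IX collagen, which covers the type II fibrils of cartilage. Its mean normalized count was 227 in +129/+Bl6 and 55.9 in Df/+Bl6, 24.6% of the control mean (log2 ratio -2.02). Its locus is on chromosome 4 at 121039566 to 121055325 (plus strand, GRCm38.p6), 29.2 Mb before the interval from Rere to Ski. The partner chains Col9a1 and Col9a3 and the cartilage fibril genes Col2a1, Col11a1 and Col11a2 were tested and not listed. Nor were Col12a1, Col14a1, Col16a1, Col19a1 and Col20a1, the other FACIT genes tested.

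Col22a1 (ENSMUSG00000079022) encodes the type XXII collagen found at tissue junctions such as that of muscle and tendon. It had the lowest log2 ratio of the 7 listed collagen genes, -2.59 without a pseudocount, with a mean normalized count of 153 in +129/+Bl6 and 25.5 in Df/+Bl6, and 8 of the 1346 listed genes had a lower ratio. Its level was also the lowest of the 7, and only 13 listed genes had a lower overall mean. It lies on chromosome 15 at 71795795 to 72150979 (minus strand, GRCm38.p6), and in the annotation its exons overlap the antisense transcript Gm16308, which was not tested.

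Col28a1 (ENSMUSG00000068794) encodes type XXVIII collagen, known mainly from peripheral nerve, where it surrounds certain Schwann cells. Its mean normalized count was 1121 in +129/+Bl6 and 475 in Df/+Bl6, 42.4% of the control mean (log2 ratio -1.24). It lies on the minus strand of chromosome 6 at 7997100 to 8193709 (GRCm38.p6). In the annotation none of Col5a2, Col8a1, Col9a2 and Col28a1 overlapped another gene, and Col27a1 holds only the microRNA gene Mir455, outside its exons.

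**Figure D3:**
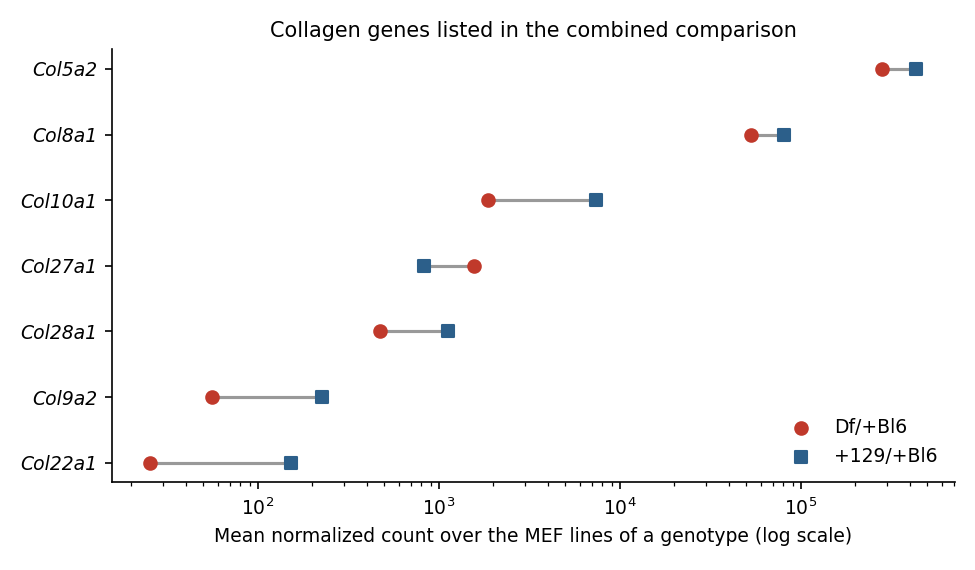
Mean normalized count of the 7 listed collagen genes (log scale) in Df/+Bl6 (red circles, mean of 4 lines) and +129/+Bl6 MEFs (blue squares, mean of 3 lines), ordered by level. The means cover single lines that are not shown, Col27a1 is the one gene whose red circle is on the right, and the gap narrows in the most abundant genes, Col5a2 and Col8a1.

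Levels between genes were compared per kilobase of the longest transcript in the GENCODE annotation, since long transcripts give more reads. On this scale Col5a2 led in +129/+Bl6 with 65656 per kb, followed by Col8a1 with 15891 and Col10a1 with 2352. Then came Col28a1 with 265, Col27a1 with 109, Col9a2 with 77.7 and Col22a1 with 17.4. The spread between lines is unknown, so which neighbours in this order differ beyond it cannot be said. Among the 6 genes that fell, the most abundant pair, Col5a2 and Col8a1, had the smallest falls, and Col22a1 and Col9a2 had the largest without a pseudocount. With a pseudocount of 100 the order of the larger falls was lost. The largest was then that of Col10a1 (log2 ratio -1.92), while Col22a1 had -1.01 and Col9a2 -1.07. Col5a2 (-0.64) and Col8a1 (-0.62) still had the smallest falls. A gene of low count needs a larger ratio to pass the threshold, and the part of this in the order was not tested.

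The 7 listed collagen genes had a median log2 ratio of -1.24, where all 1346 listed genes had a median of 0.61. Among listed genes that were lower in Df/+Bl6 the median was -1.61 for the 6 collagens and -0.81 for all 550. A fall of at least 1 on the log2 scale was seen in 4 of the 6 collagens and in 173 of the 550 genes (31.5%). Since the table holds only genes past the threshold, ratios near 0 are missing from it, and these medians describe selected genes.

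**Figure D4:**
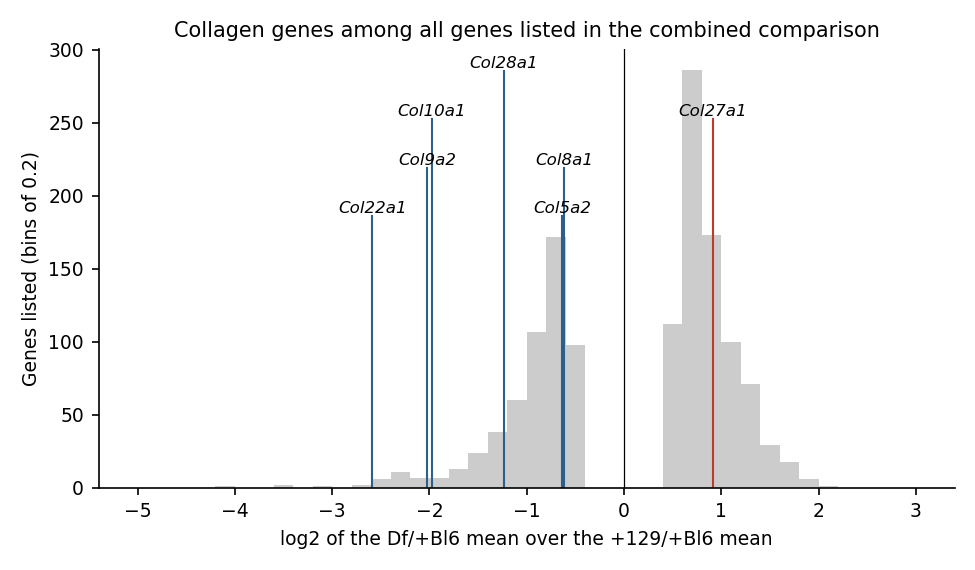
Histogram of the log2 ratio of the Df/+Bl6 mean over the +129/+Bl6 mean for the 1346 genes listed in the combined comparison (grey), with vertical lines at the 7 collagen genes. The gap around 0 comes from the threshold of the table, and Col22a1, Col9a2 and Col10a1 lie in the left tail.

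The allelic tables count only reads that tell the strains apart, so they rest on fewer reads, and each was normalized on its own. They come from the same 7 lines as the combined comparison and are no independent evidence of it. Of the 7 collagen genes, 1 (14.3%) was listed for the 129S5 allele, where 16.3% of all genes listed in the combined comparison were, and 3 (42.9%) were listed for the C57BL/6J allele, against 21.4%. Col5a2 was the gene listed for both alleles. Its 129S5 mean was 24084 in +129/+Bl6 and 15724 in Df/+Bl6 (log2 ratio -0.62), and its C57BL/6J mean was 29301 and 19292 in the same order (log2 ratio -0.60). Both are near its combined log2 ratio of -0.64.

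Col28a1 and Col27a1 were listed for the C57BL/6J allele and not for the 129S5 allele. The C57BL/6J mean of Col28a1 was 426 in +129/+Bl6 and 184 in Df/+Bl6 (log2 ratio -1.21). That of Col27a1 was 126 and 244 in the same order (log2 ratio 0.95). These directions were those of the combined comparison. Which genes were tested for an allele cannot be read from the tables, so it is not known whether the 129S5 alleles of Col28a1 and Col27a1, or either allele of Col8a1, Col9a2, Col10a1 and Col22a1, were tested.

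The genes that modify, bind, sense and degrade collagen were followed from 6 lists with 76 tested genes in all. Of these 11 were listed (14.5%, against 8.67% of all genes), all 11 of them lower in Df/+Bl6, with a median log2 ratio of -1.11. The lists here and below were chosen with earlier results of these data known. Their shares are descriptions and were not tested against those of all genes. None of the 23 tested genes for folding and secretion was listed, among them the prolyl hydroxylase subunits P4ha1 and P4ha2, the lysyl hydroxylases Plod1 to Plod3 and the collagen chaperone Serpinh1. None of the 7 tested genes for cleavage of the propeptides, such as Bmp1 and Adamts2, was listed either. At the share of 8.67% over all genes, lists of this size can hold no listed gene. These counts do not show that folding, secretion or cleavage was spared.

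Of the 6 tested cross-linking genes 2 were listed (33.3%, against 8.67% of all genes). Lox, the lysyl oxidase that starts the cross-links of collagen and elastin, had means of 481784 in +129/+Bl6 and 317166 in Df/+Bl6 (log2 ratio -0.60). Loxl4, a related oxidase, fell from 20223 to 11936 (log2 ratio -0.76). These ratios are of the size of those of the abundant chains Col5a2 and Col8a1.

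Of 16 tested proteoglycans and glycoproteins that bind collagen fibrils 5 were listed (31.2%, against 8.67% of all genes). Comp, a protein of cartilage and tendon matrix that binds several collagens, had the lowest ratio, with means of 2422 in +129/+Bl6 and 420 in Df/+Bl6 (log2 ratio -2.53). The small leucine-rich proteoglycans Prelp and Fmod fell from 20284 to 4632 (log2 ratio -2.13) and from 35101 to 11034 (log2 ratio -1.67). Tnxb, which encodes tenascin X, fell from 267 to 115 (log2 ratio -1.22). Fn1, which encodes the fibronectin on which collagen fibrils are laid down, fell from 3418220 to 2121647 (log2 ratio -0.69). Others of the same group, such as Dcn, Bgn and Lum, were tested and not listed.

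Of 9 tested collagen receptors 1 was listed (11.1%), which is near the 8.67% of all genes listed, while 3.54% of all genes were listed and lower. Itga11, a subunit of a fibroblast integrin for fibrillar collagen, had means of 49380 in +129/+Bl6 and 23332 in Df/+Bl6 (log2 ratio -1.08), while Itga1, Itga2, Itgb1, Ddr1 and Ddr2 were not listed. Of the 15 tested genes for degradation and its inhibitors 3 were listed (20%). The collagenase Mmp13 fell from 5443 to 2061 (log2 ratio -1.40), the membrane-bound protease Mmp15 from 989 to 459 (log2 ratio -1.11) and the gelatinase Mmp2 from 56351 to 35542 (log2 ratio -0.66). None of the inhibitors Timp1 to Timp4 was listed.

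Of these 11 genes, Loxl4, Comp and Mmp2 were listed for both alleles and Itga11 for the C57BL/6J allele. The 129S5 means of Loxl4 were 4536 in +129/+Bl6 and 2607 in Df/+Bl6 (log2 ratio -0.80), and its C57BL/6J means were 5533 and 3088 (log2 ratio -0.84). In the same order of alleles the log2 ratios of Comp were -2.84 and -2.40 and those of Mmp2 -0.64 and -0.68, while the C57BL/6J allele of Itga11 had -1.19. Each kept the direction of its combined comparison, with which it shares the lines.

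**Figure D5:**
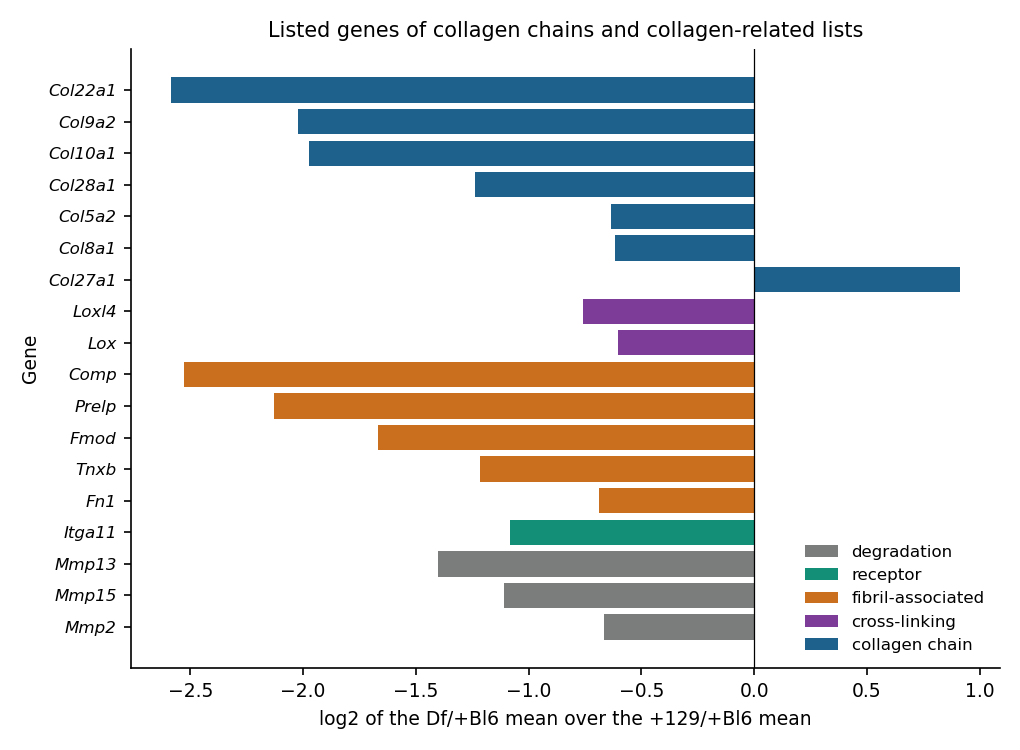
Log2 ratio of the Df/+Bl6 mean over the +129/+Bl6 mean for the 7 listed collagen chain genes (dark blue) and the 11 listed genes of the collagen-related lists, coloured by list. Bars start at 0 and have no error because no value per line was used. Col27a1 is the one bar on the right.

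Markers of several cell types, not all of them known sources of the listed collagens, were counted in the same way. Their shares were set beside the 8.67% of all genes that were listed and the 3.54% that were listed and lower. In bulk cultures fewer cells of a type and less RNA per cell cannot be told apart. Of 8 tested chondrocyte markers 2 were listed (25%), Comp and Sox6, a transcription factor of cartilage (2408 in +129/+Bl6 and 983 in Df/+Bl6, log2 ratio -1.29), and their summed mean was 4830 in +129/+Bl6 and 1404 in Df/+Bl6. Only these listed genes, both lower, enter the sum, so its direction was fixed by the listing. The defining genes Acan and Sox9 were tested and not listed, and Comp also counts among the fibril-binding genes. Of 7 tested osteoblast markers 1 was listed (14.3%), the phosphatase gene Alpl, with 734 in +129/+Bl6 and 164 in Df/+Bl6 (log2 ratio -2.16). This share rests on a single gene of a short list, so it says little, whether set against 8.67% or 3.54%. The part of these cell types in the values of Col9a2 and Col10a1 was not tested.

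Of 6 tested markers of Schwann and neural crest cells 4 were listed (66.7%), all lower in Df/+Bl6. Their summed mean was 1340 in +129/+Bl6 and 409 in Df/+Bl6, and their log2 ratios ran from -2.32 to -1.09. S100b, which encodes a calcium-binding protein of glia, had means of 615 in +129/+Bl6 and 123 in Df/+Bl6. The transcription factor genes Sox10 and Foxd3 had 326 and 118 in +129/+Bl6 and 113 and 40.3 in Df/+Bl6. Erbb3, a receptor for neuregulin, had 282 and 132 in the order control and deletion. The markers Cdh19 and Mbp were tested and not listed, so the sum leaves them out. As all listed markers here were lower, the direction of the sum was fixed by the listing. The part of such cells in the value of Col28a1 was not tested. Of 12 tested fibroblast markers only Fbln1 was listed (8.33%, near the share of all genes), with 4566 in +129/+Bl6 and 6565 in Df/+Bl6 (log2 ratio 0.52). No tested marker of skeletal muscle (7), smooth muscle (6), endothelium (7), epithelium (5) or macrophages (8) was listed. At the share of 8.67% over all genes, lists this short can easily hold none.

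The promoters of 3 listed genes are printed because these are the pair of cartilage genes that fell and the one gene that rose. Each is 300 bases of RefSeq on GRCm38.p6, from 250 before to 50 after a start site, read 5′ to 3′ along the gene. The start site used for Col27a1 lies inside the limits of the gene given above. Capitals mark matches to the motifs named in the next paragraph.
Col10a1, plus strand, chr10:34389731-34390030: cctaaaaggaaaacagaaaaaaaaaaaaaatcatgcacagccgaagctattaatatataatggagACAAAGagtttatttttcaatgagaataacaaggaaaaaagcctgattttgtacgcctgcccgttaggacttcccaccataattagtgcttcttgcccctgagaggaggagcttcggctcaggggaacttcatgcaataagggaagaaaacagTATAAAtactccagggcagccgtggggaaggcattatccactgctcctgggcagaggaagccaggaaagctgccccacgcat
Col9a2, plus strand, chr4:121039316-121039615: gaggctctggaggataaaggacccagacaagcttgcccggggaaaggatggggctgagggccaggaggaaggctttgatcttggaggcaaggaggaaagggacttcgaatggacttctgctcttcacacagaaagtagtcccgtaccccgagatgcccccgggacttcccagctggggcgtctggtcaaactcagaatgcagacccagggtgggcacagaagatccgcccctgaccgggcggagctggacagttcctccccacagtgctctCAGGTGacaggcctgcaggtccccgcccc
Col27a1, plus strand, chr4:63215162-63215461: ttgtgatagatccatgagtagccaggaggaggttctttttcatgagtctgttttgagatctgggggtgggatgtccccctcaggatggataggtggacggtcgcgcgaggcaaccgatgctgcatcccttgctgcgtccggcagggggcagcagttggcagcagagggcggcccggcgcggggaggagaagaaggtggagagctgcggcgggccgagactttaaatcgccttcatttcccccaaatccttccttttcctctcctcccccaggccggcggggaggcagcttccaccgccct

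RefSeq promoters were found for 5 of the 7 listed genes. They were searched on both strands for TATAAA (the TATA box), CCAAT (the CCAAT box), TGTGGT (the core bound by Runx factors), ACAAAG (a core bound by Sox factors) and CACCTG (an E-box). TATAAA was in 1 of the 5, Col10a1, beginning 32 bases before the start site, and in 13.6% of all 32851 promoters of this length. ACAAAG was in Col10a1 and Col28a1 (18.7% of all promoters), CACCTG in Col9a2 and Col8a1 (20.2%) and TGTGGT in Col8a1 (16.8%). CCAAT was in none of the 5 (37.4% of all promoters), and the Col27a1 promoter held none of these motifs. No 2 matches overlapped. A match describes the letters in this window and not a bound site.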

How the data were processed

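Per the labels and the study's methods, polyA+ RNA of 7 MEF lines was sequenced as stranded paired-end libraries. The authors aligned reads with GSNAP, allowing no mismatch, to the longest transcript of each gene in C57BL/6J (GRCm38) and in 129S5/SvEvBrd. Pairs were counted when both mates fell on 1 gene at a single best location, so reads shared between similar chains were dropped. The signal values used are the authors' deposited mean normalized counts, divided by DESeq size factors and then averaged within each genotype. The authors' adjusted p-values were read only to check that all 1346, 257 and 326 genes of the 3 deposited tables were under 0.05. The tables hold genes that the authors called with DESeq. The fold changes, log2 fold changes and p-values of the authors' own comparison were not used.

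The mean columns are named only A and B. In every gene of each table the overall mean was, within 0.0001%, the mean of A and B weighted by 4 and 3, the numbers of Df/+Bl6 and +129/+Bl6 lines. The file of normalized counts has 9 columns of values without names, which were not used. Its identifiers gave the 15531 genes tested. The tests between lines planned for named columns were therefore not run, and replicate error and depth are unknown.

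Log2 ratios of the means were computed here without a pseudocount. Symbols came from the gene name table, which matched 14963 of the tested identifiers, and GRCm38.p6 positions from RefSeq by symbol. Coding sequences, strands and overlaps came from the GENCODE annotation of NCBIM37, and no coordinate of that build is given. The reading frames of GENCODE replaced the RefSeq proteins first planned for. All collagen genes listed in any table are named, and of the other lists the listed genes with the highest means, up to 6 a list. The members and lists were chosen with earlier results of these data known. Some genes of the marker lists are not reported here and were left out of the counts. The scripts were tested on simulated data. Python 3.11.15 and matplotlib 3.10.9 were used.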

Additional observations from a re-analysis of the deposited data

How the results depend on the processing

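No value per line was used, so leaving out single lines was not run. No paired analysis was possible because the values are means over lines and the labels pair no lines. Of the 7 listed collagen genes, 7 were found with RefSeq symbols and synonyms, which add Col26a1, a gene that was not tested, 6 had an overall mean of at least 100 and 4 one of at least 1000. A log2 ratio of at least 1 in size was seen in 4. For the C57BL/6J allele, 3 genes were listed and 1 had a mean of at least 1000. The median log2 ratio of the listed collagen genes, -1.24 as reported, was -1.24 with a pseudocount of 1 and -1.01 with one of 100. Centred on the median of all listed genes it was -1.84, and the ratio of the summed means, which Col5a2 dominates, was -0.64. It was -0.62 for the 129S5 allele, which is Col5a2 alone, and -0.60 for the C57BL/6J allele, over 3 genes. A pseudocount cannot turn the sign of a ratio and centring lowers every gene by the same amount, so Col27a1 was the one gene whose direction could have turned, and its centred log2 ratio was 0.31. The pseudocount of 100 moved the low genes most, to -1.01 for Col22a1 and -1.07 for Col9a2.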
